A study of Drosophila melanogaster with 3 samples.

Results

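The sites described here are the second tier of a chromatin immunoprecipitation with sequencing (ChIP-seq) experiment on E(spl)mgamma-HLH, a transcriptional repressor of the fruit fly Drosophila melanogaster. They were chosen by the signal of the peak list called on the reads of all 3 replicates together. The authors' reproducible set holds the optimal peaks after thresholding on the irreproducible discovery rate (IDR), and a band of as many ranks directly below it in the pooled list was taken. Peaks of the band that shared no base with the reproducible set are the weaker sites. Of the band, 242 peaks touched a reproducible peak and were left out, so that 4282 weaker sites (94.7% of the band) remained of 20696 listed regions, background regions included. The material was whole embryos of 0 to 16 hours, males and females pooled, from a transgenic line that stably expresses E(spl)mgamma-HLH with GFP at its C terminus. An anti-GFP antibody was used on chromatin sonicated to 200 to 800 bp, and the 3 biological replicates form the single group. All cell types of the embryo and all stages of that window were mixed, no unmodified strain was included, and the control behind the peak calls was not analysed here. The signal and q-value of the sites, and their places in the replicate lists, come from the reads that chose them and are given as description without a test.

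E(spl)mgamma-HLH belongs to the Hairy and Enhancer of split proteins, which join a basic helix-loop-helix (bHLH) domain to an Orange domain and recruit the corepressor Groucho through a short C-terminal motif. Genes of the Enhancer of split complex are direct targets of Notch signalling, switched on by the Notch intracellular domain with the DNA-binding protein Su(H), and their products restrain neural fates in cells next to neural precursors. Proteins of this family bind certain E-boxes, whose general form is CANNTG, as well as N-boxes of the form CACNAG and the related site CACGCG. The IDR procedure compares the order of peaks between replicates and keeps those whose rate of irreproducibility is below a chosen cutoff, so that a rank below the boundary does not by itself label a site as unbound.

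The stretches below show what DNA lay under weaker sites: 4 near the top of the band, 2 from just below the 10 strongest sites that hold a motif that differed between the sets, and 3 promoters with the octamer TATCGATA, the last chosen after their values were seen. Each runs 50 bp to either side of a summit, in dm6 on the plus strand, from the RefSeq genome. Capitals mark, on either strand, the E-box CACATG, the Hairy-type site CACGCG, the N-box CACTAG, the GAGA factor core GAGAG or the octamer just named.
Mipp1, chr3L:16571521-16571621: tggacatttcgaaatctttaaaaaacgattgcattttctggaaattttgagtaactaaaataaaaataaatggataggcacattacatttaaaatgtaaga
salm, chr2L:11417621-11417721: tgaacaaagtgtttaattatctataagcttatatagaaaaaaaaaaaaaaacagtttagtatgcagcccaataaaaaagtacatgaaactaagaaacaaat
Traf4, chr2L:4371776-4371876: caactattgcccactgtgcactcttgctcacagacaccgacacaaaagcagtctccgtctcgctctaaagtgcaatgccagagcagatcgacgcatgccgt
Noc2, chr2L:21163377-21163477: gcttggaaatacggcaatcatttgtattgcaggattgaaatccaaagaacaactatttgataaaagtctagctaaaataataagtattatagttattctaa
caps, chr3L:13226971-13227071: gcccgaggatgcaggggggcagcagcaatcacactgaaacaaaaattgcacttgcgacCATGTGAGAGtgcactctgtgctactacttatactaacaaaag
dpr5, chr3R:11490378-11490478: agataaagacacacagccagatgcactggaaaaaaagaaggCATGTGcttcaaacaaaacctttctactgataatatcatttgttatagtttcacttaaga
MICAL-like, chr3L:13015335-13015435: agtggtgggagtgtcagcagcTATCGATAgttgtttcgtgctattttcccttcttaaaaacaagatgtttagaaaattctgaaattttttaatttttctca
Usp7, chrX:12029072-12029172: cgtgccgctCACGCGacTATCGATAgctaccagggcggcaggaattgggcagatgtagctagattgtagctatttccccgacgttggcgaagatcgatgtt
CG9795, chr3R:4319571-4319671: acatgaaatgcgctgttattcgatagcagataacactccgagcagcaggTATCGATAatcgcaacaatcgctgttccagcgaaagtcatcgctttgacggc

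The first of these, an intronic site 830 bp downstream of the start of Mipp1, was 24.8% G or C, and the intergenic site nearest to salm, the spalt major gene, was 22.8%. The Traf4 promoter site, at −164 bp from the start, was 53.5%. In the caps window, CACATG on the minus strand and GAGAG overlapped. The Usp7 promoter window held CACGCG a few bases from TATCGATA.

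No gap in signal separated the weaker sites from the reproducible set. Without exception the reproducible peaks were the pooled peaks of highest signal, with the same position, summit and signal in both lists, so the boundary is a cut in rank along 1 list. The last of them had a signal of 114.425 and the first weaker site 114.412. At the far end, the last weaker site had 62.37 and the next peak, just outside the band, 62.335. The median signal of the weaker sites was 80.1, against 196.6 for the reproducible peaks. Of the weaker sites, 3715 (86.8%) had a q-value below 0.05 in the authors' pooled list, and 624 (14.6%) were at the highest value of −log10 q in it, where all reproducible peaks stood. Their deposited width was 384 bp in 99.8% of cases, against 62.8% of reproducible peaks.

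Weaker sites were present in most replicate lists but low in them. Replicate 1 listed a peak over the summit of 83.2% of the sites, replicate 2 of 91.1% and replicate 3 of 88.7%. All 3 lists held 2883 sites (67.3%), 2 lists held 1221, 1 list held 174, and 4 sites were in none. Among reproducible peaks, 4360 (96.4%) were in all 3 lists. Counting only each replicate's highest peaks, as many as the reproducible set holds, the picture was reversed: 2910 weaker sites (68.0%) were there in no replicate, 1203 in 1, 167 in 2, and 2 sites in all 3. Of the reproducible peaks 3097 (68.5%) were there in all 3 replicates, 1021 in 2, 385 in 1 and 21 in none. Where matched, the weaker sites had median ranks of 7030.5, 7269 and 6963 in replicates 1, 2 and 3. The lists differ in length, 23367, 30000 and 24251 peaks, so these ranks are not compared between replicates.

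**Figure D1:**
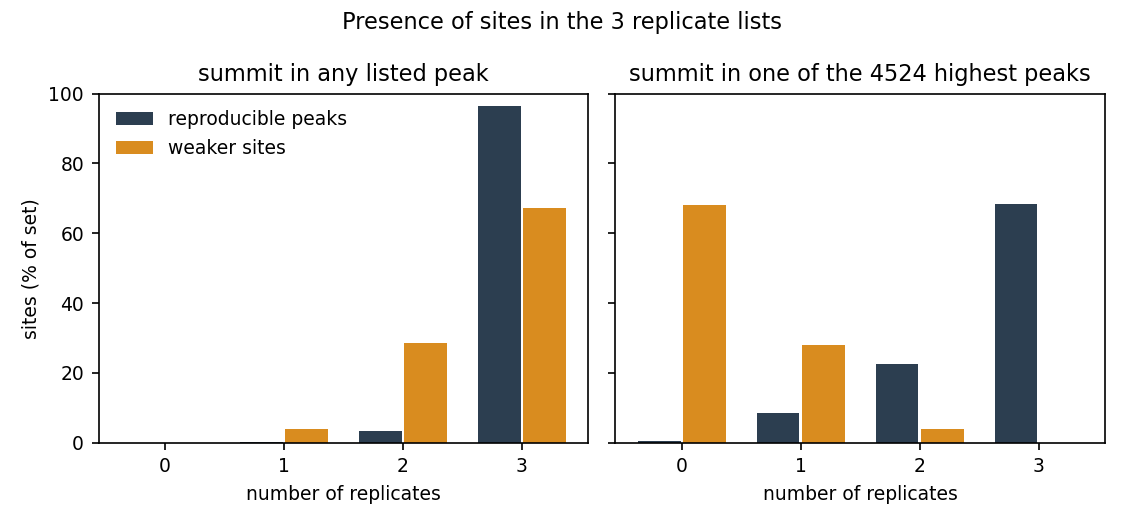
Share of reproducible peaks (dark) and weaker sites (orange), in percent of each set, by the number of replicates whose list holds the summit in any peak (left) or in one of its highest peaks, as many as the reproducible set holds (right). Of the weaker sites 67.3% were listed in all 3 replicates, and 68.0% were among the highest peaks of none.

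Replicate 2 stood apart in these counts. It was the sole list for 100 weaker sites, against 43 for replicate 1 and 31 for replicate 3. Its list was also the longest, so these sole-list counts are not like for like between replicates. Those 100 sites were 45.8% ± 10.3 G or C (SD over sites), against 39.3% ± 8.94 and 35.99% ± 8.02. Sites among those highest peaks in replicate 2 and in neither other numbered 469 and were 39.98% ± 11.2 G or C, against 37.0% ± 9.54 for the 382 of replicate 1 and 33.8% ± 8.14 for the 352 of replicate 3. The class differences below are also given with sets rebuilt without replicate 2. A rebuilt set holds peaks of a remaining replicate whose summit lay in a peak of the other. They were ordered by the mean of the ranks in those lists and split at the same ranks as the pooled list.

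Fewer of the weaker sites lay at promoters than of the reproducible peaks, and more lay in introns and between genes. Summits no more than 500 bp from a transcription start site (TSS) of any gene were counted as promoter. The others were placed, in this order, in 5' UTRs, coding sequence, 3' UTRs, introns and the space between genes. Promoters held 1508 weaker sites (35.2%, 95% Wilson interval 33.8 to 36.7) against 2265 reproducible peaks (50.1%, 48.6 to 51.5). The difference was −14.8 percentage points (95% Newcombe interval −16.9 to −12.8, Fisher's exact test adjusted over 6 classes, p = 2.43e-44). Introns held 1824 weaker sites (42.6%) against 35.6% of reproducible peaks, 6.96 points more (4.93 to 9.00, adjusted p = 4.46e-11 in Fisher's exact test). Intergenic sites numbered 829 (19.4%) against 13.1%, 6.25 points more (4.71 to 7.79, adjusted p = 5.23e-15, Fisher's exact test). These tests treat sites as counting units, and their intervals cover counting error only. With sets rebuilt from replicates 1 and 3, the promoter difference was −21.8 points, the intron difference 7.99 and the intergenic difference 8.83.

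Sites inside coding sequence and 3' UTRs were few but more frequent in the weaker tier. Coding sequence held 45 weaker sites (1.05%) and 10 reproducible peaks (0.221%), an adjusted p of 6.90e-07 in Fisher's exact test. For the 2126 sites of the upper ranks of the band the difference was 0.0612 points and no longer passed (adjusted p = 0.602, Fisher's exact test). Rebuilt without replicate 1, 2 or 3 the coding difference was 1.62, 3.74 and 2.94 points, against 0.830 over all. Rebuilt sets are ordered by mean rank and not by pooled signal, so those values and the 0.830 points are not like for like. The 3' UTRs held 46 weaker sites (1.07%) against 26 reproducible peaks (0.575%, adjusted p = 0.0149, Fisher's exact test), a call that was lost without replicate 3 at 0.199 points. The 5' UTRs held 30 weaker sites (0.701%) against 18 (0.398%), which did not pass (adjusted p = 0.0599, Fisher's exact test).

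Along the pooled list, the promoter share was lower in each successive bin of rank, within the reproducible set as well as in the band. With 4 equal bins in each, it was 60.7% in the first bin of the reproducible set and 42.3% (39.4 to 45.2) in the last. The 4 bins of the band followed with 36.9% (34.1 to 39.9), 36.7%, 35.4% and 31.9% (29.2 to 34.7). The promoter intervals on either side of the boundary overlapped, which does not show equal shares. The intergenic intervals there narrowly missed each other, at 15.6% (13.57 to 17.79) before it and 20.1% (17.81 to 22.63) after it. Peaks touching the reproducible set were left out only after the boundary, so these bins are not like for like. The following bins had 18.2% (15.97 to 20.61) and 18.8% (16.63 to 21.29), which overlap the bin before the boundary. The last bin of the band had 20.3% (18.00 to 22.80), which does not. The step at the boundary itself was not tested. Below the band the promoter share was 26.7% in the stretch that followed and 19.4% at the end of the list. Coding sequence took 0.188%, 0.377%, 1.21% and 2.41% of the 4 bins of the band and 14.1% of the last stretch. Against the reproducible peaks below the median signal of their set (196.6), the promoter difference of the weaker sites was −9.35 points (adjusted p = 1.15e-12, Fisher's exact test).

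**Figure D2:**
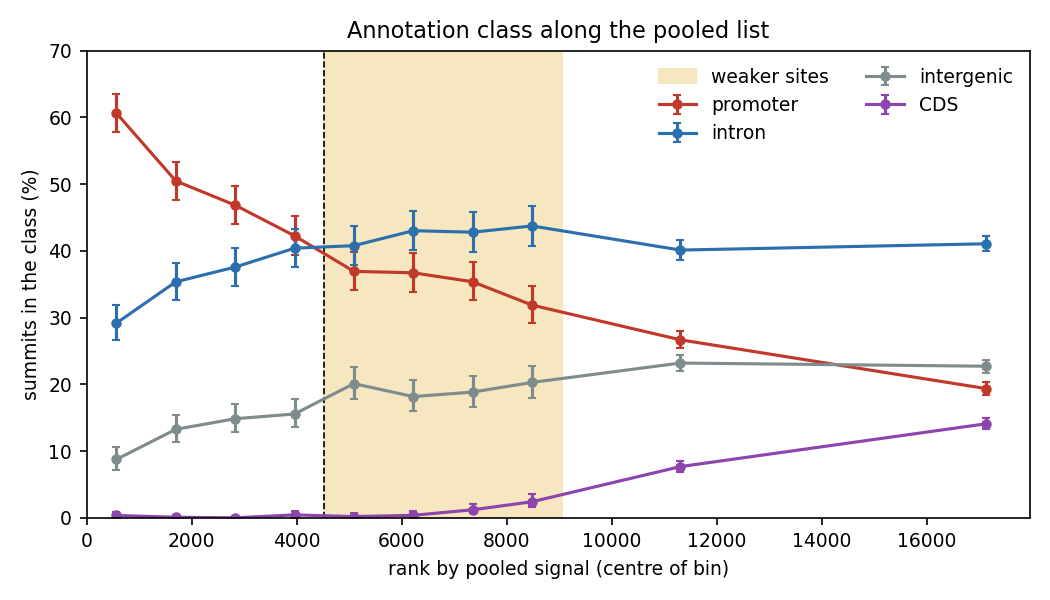
Share of summits (percent, points at bin centres, bars for 95% Wilson intervals) in 4 annotation classes against rank by pooled signal; the shaded band holds the weaker sites, the dashed line marks the end of the reproducible set, and bins past it leave out peaks that touch that set. The promoter share was 60.7% in the first bin, between 36.9% and 31.9% in the band and 19.4% in the last bin.

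Each replicate's own list gave the same direction. Each list was divided into a first tier as large as the reproducible set and an equal second tier, from which peaks touching the first were left out. Second-tier peaks were at promoters in 25.6%, 41.6% and 30.7% of cases in replicates 1, 2 and 3, against 50.5%, 49.3% and 49.9% of the first tier. The mean difference was −17.3 ± 8.74 points (SD, n = 3) and was negative in 3 of 3 replicates (exact permutation test over pairs, two-sided, p = 0.25, the smallest that 3 replicates allow). Replicate 2 had the smallest difference, −7.72 points. Coding sequence held 7.74%, 1.27% and 5.19% of the second tier, a mean difference of 4.53 ± 3.24 points (SD, n = 3), higher in 3 of 3 replicates (exact permutation p = 0.25). Intergenic shares were 22.6%, 16.5% and 19.96%, each above the 12.8% to 13.9% of the first tiers.

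**Figure D3:**
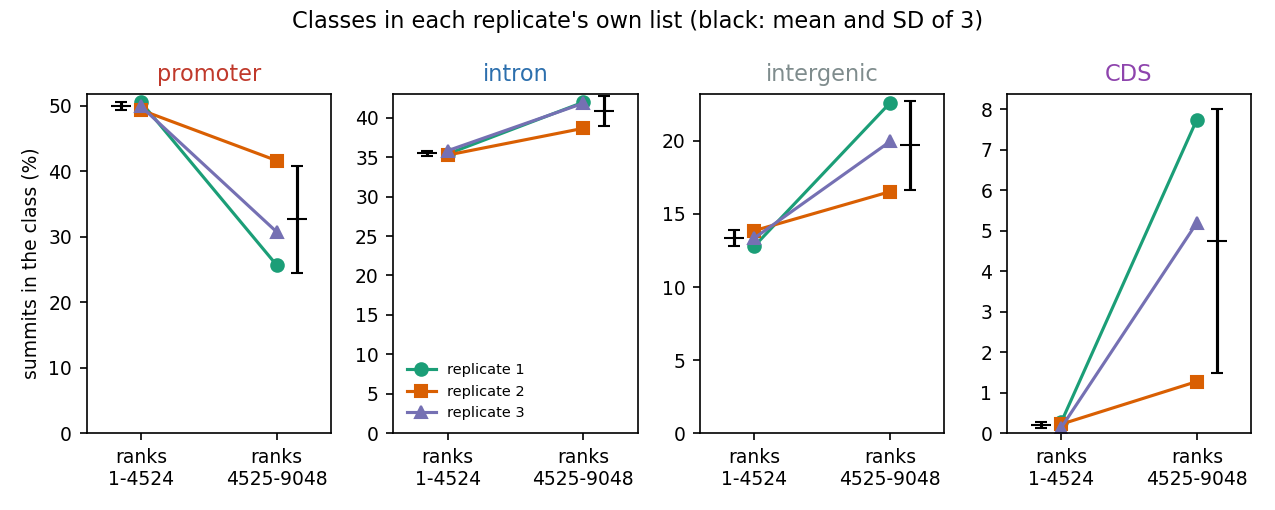
Share of summits (percent) in 4 classes for the first and second tier of each replicate's own list, peaks that touch the first left out of the second; coloured symbols are replicates, and black marks the mean and SD of 3. Promoter shares of the second tier were 25.6%, 41.6% and 30.7%.

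The promoter share differed with the replicate lists that held a site. The promoter share was 33.6% (31.9 to 35.3) of the 2883 sites in all 3 lists, 37.5% (34.8 to 40.3) of the 1221 in 2 lists and 45.4% (38.2 to 52.8) of the 174 in 1 list. It was 40.3% (36.8 to 43.9) of the 720 sites not listed in replicate 1 and 44.2% (39.8 to 48.7) of the 482 not listed in replicate 3, but 32.2% (27.7 to 37.1) of the 379 not listed in replicate 2. No test was made of these shares, since presence in a list comes from the same reads as the signal.

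The weaker sites were farther from genes' starts, and those at promoters were less often upstream of the start. The median weaker site was 1678 bp from a protein-coding start, against 595.5 bp for reproducible peaks, and 665 sites (15.5%) lay over 10000 bp away, against 9.79%. Of promoter sites whose nearest protein-coding TSS was within 500 bp, 1085 of 1394 (77.8%, 75.6 to 79.9) were upstream of it, against 87.1% (85.6 to 88.4) of the reproducible ones. Their median signed position was −70 bp against −102 bp. Within 150 bp of the start, on either side, were 907 of the weaker promoter sites (65.1%) and 1379 of the reproducible ones (64.1%). Start sites on both strands within 500 bp, as at divergent gene pairs, flanked 414 of 1508 weaker promoter sites (27.5%) and 932 of 2265 reproducible ones (41.1%). That difference was −13.7 points (−16.7 to −10.6, Fisher's exact test, p = 4.82e-18).

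**Figure D4:**
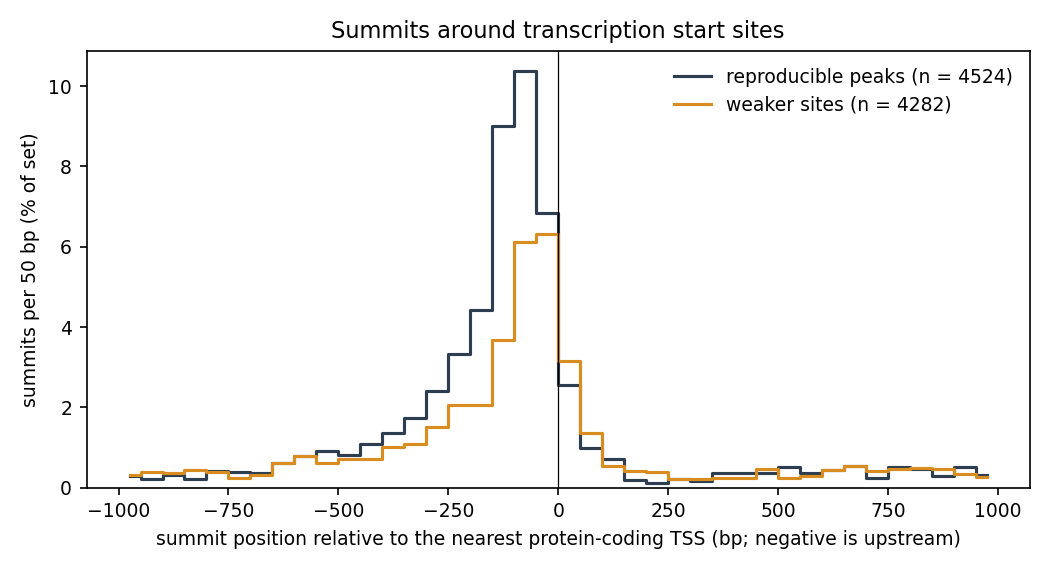
Summits per 50 bp, in percent of each set, by position relative to the nearest protein-coding TSS (bp, negative upstream), for reproducible peaks (dark) and weaker sites (orange, n = 4282). Both profiles peak just upstream of the start, the reproducible one higher and farther upstream (promoter medians −102 and −70 bp).

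The rule left out peaks that touched a reproducible peak, so weaker sites were apart from that set by choice. The median distance to the nearest reproducible peak was 6841 bp. Within 1000 bp of one were 444 sites (10.4%), within 5000 bp 1780 (41.6%), and 892 (20.8%) were over 20000 bp away. No distance for random positions was computed. Across the arms X, 2L, 2R, 3L, 3R and 4, no share differed between the sets in Fisher's exact test adjusted over 6 arms, with 0 of 6 also at an unadjusted p under 0.05. Chromosome 4 held 20 weaker sites (0.467%) and 13 reproducible peaks (0.287%). Annotated transposable elements held 16 weaker sites (0.374%, 0.230 to 0.606), 4 reproducible peaks (0.0884%) and 52 peaks below the band (0.446%). They cover 5.93% of the arms, but how well reads can be placed in them was not examined.

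DNA under the weaker sites held more G and C, mainly at promoters. Windows of 50 bp to either side of the summit were 37.2% ± 9.79 G or C (SD over sites), against 34.7% ± 8.81 for reproducible peaks and 43.2% ± 10.1 for windows 500 bp to the side of the weaker sites. At promoters the values were 39.9% ± 10.4 and 35.7% ± 9.55, in introns 35.4% ± 8.53 and 33.3% ± 7.54, and between genes 35.0% ± 9.16 and 34.3% ± 7.98. Promoter windows went from 33.8% in the first bin of the reproducible set to 38.7% and 41.5% in the first and last bins of the band. The end of the pooled list had 45.4%.

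Of 20 fixed motifs, 3 were in a larger share of weaker sites than of reproducible peaks and 1 in a smaller share. CACGCG, a site preferred by Hairy-type repressors, was in 89 weaker windows (2.08%) against 53 (1.17%), 1.77 times the share (adjusted p = 0.00601, Fisher's exact test over 20 motifs). GAGAG, the core bound by GAGA factor, was in 527 (12.3%) against 446 (9.86%), 1.25 times (adjusted p = 0.00543, Fisher's exact test). The E-box CACATG was in 190 (4.44%) against 152 (3.36%), 1.32 times (adjusted p = 0.0473, Fisher's exact test). The N-box CACTAG was in 104 (2.43%) against 167 (3.69%), 0.658 times (adjusted p = 0.00601, Fisher's exact test). The E-box CACGTG, the form most often linked to Hairy and Enhancer of split proteins, was in 38 weaker windows (0.887%) and 37 reproducible ones (0.818%), with an interval of −0.321 to 0.467 points for the difference. The Su(H) consensus, GTG with C or T before it and A or G then GAA after it, was in 40 (0.934%) and 44 (0.973%), −0.451 to 0.378 points.

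Within promoters, where G and C content differed most, CACGCG was in 48 of 1508 weaker windows (3.18%) against 29 of 2265 (1.28%), 2.49 times the share (adjusted p = 0.000820, Fisher's exact test). GAGAG was in 204 (13.5%) against 205 (9.05%), 1.49 times (adjusted p = 0.000364, Fisher's exact test). Outside promoters 0 of 20 motifs passed the adjusted Fisher's exact test, and CACATG alone had an unadjusted p under 0.05, at 4.65% against 3.19% (unadjusted p = 0.00906). None of the 4 calls held when the weaker sites were set against the reproducible peaks below their median signal, with ratios there of 1.62 for CACGCG, 1.16 for GAGAG, 1.32 for CACATG and 0.713 for CACTAG. None held either for the 2126 sites of the upper ranks of the band, with ratios of 1.61 for CACGCG, 1.16 for GAGAG, 1.19 for CACATG and 0.675 for CACTAG. With sets rebuilt without replicate 3, CACATG at 1.19 times, GAGAG at 1.14 and CACTAG at 0.737 did not pass (adjusted p = 0.270, 0.148 and 0.0716, Fisher's exact test). CACGCG at 1.48 times without replicate 1 (adjusted p = 0.0973, Fisher's exact test) and CACATG at 1.22 without replicate 2 (adjusted p = 0.143, Fisher's exact test) did not pass either.

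Against their own flanks, 2 motifs were more frequent at weaker summits. Summit windows were 37.2% G or C and flanks 43.2%. The test did not match them for this, so it cannot separate a motif's share from base composition, for E-boxes as for the others. TATCGATA, the core of the DNA replication-related element bound by DREF, was in 84 summit windows (1.96%) and 13 flanking windows (0.304%), 6.46 times as often (exact McNemar test adjusted over 20 motifs, p = 6.42e-13). Of the 84, 75 were at promoters, 4.97% of the promoter sites, against 85 (3.75%) of reproducible promoter peaks. Over all sites its share was 1.96%, against 1.95% of the reproducible peaks (difference −0.565 to 0.603 points). CACTAG was in 104 summit windows against 68 flanks, 1.53 times (adjusted p = 0.0450, exact McNemar test), and CACCAG, another N-box, in 2.36% against 3.46%, 0.682 times (adjusted p = 0.0285, exact McNemar test). None of the 10 E-boxes was more frequent at the summits than beside them at the adjusted threshold, and 0 were at an unadjusted p under 0.05. In the other direction CAAGTG (0.838 times), CAATTG (0.797 times) and CACCTG (0.783 times) were less frequent at summits at unadjusted p of 0.0289, 0.0287 and 0.0444 in the exact McNemar test, and none passed after adjustment (0.103, 0.103 and 0.127). CACGTG was in 38 summits and 45 flanks. Of the 3 motifs in a larger share of weaker sites than of reproducible peaks, none passed against flanks in the adjusted exact McNemar test. CACGCG was in 89 summits and 107 flanks, GAGAG in 527 and 541, and CACATG in 190 and 218.

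Among all hexamers, read on both strands, 93 were in a larger share of weaker windows than of reproducible ones, which is 4.47%, and 65 in a smaller share, which is 3.12% (Fisher's exact test, adjusted p below 0.05). The 93 held a mean of 4.37 G or C of 6 letters, the 65 a mean of 1.05. Of those in at least 50 windows of a set, CGGGAG had the highest ratio, 3.70, in 56 weaker sites (1.31%) and 16 reproducible peaks (0.354%). It was followed by CGGACG at 2.39 times, CGCGTC at 2.38, CGCGGC at 2.24 and CCGCGA at 2.16. GGTCGA had the lowest ratio, 0.555, followed by AAGCCT at 0.620, AGCCCT at 0.658, the N-box CACTAG and then ACCTTA at 0.694. Among promoter summits 100 were higher and 68 lower, and outside promoters 5 and 3. Against the reproducible peaks below their median signal, a smaller set, 0 hexamers were higher and 2 lower. Of the hexamers named above none passed there, with ratios of 1.68 to 2.48 for those higher and 0.472 to 0.713 for those lower.

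The 10 weaker sites of highest signal lay in introns, between genes and at promoters. Their nearest protein-coding starts were those of Mipp1, CG13872, CG46385, salm, Traf4, Noc2, aop, oaf, CG14269 and CG15824, with signals from 114.412 to 114.161. The site at aop, which encodes the repressor Yan of the EGF receptor pathway, lay in an intron at −521 bp from the nearest start. It ranked 4606, 3164 and 3430 in replicates 1, 2 and 3, and aop also had 4 reproducible peaks. The salm site, 27943 bp from the start, ranked 4706, 4521 and 9266, and its nearest reproducible peak was 35247 bp away. The Noc2 promoter site ranked 2820, 5943 and 3727. At the other end, a promoter site lay at −339 bp from CadN, the N-cadherin gene, and 184369 bp from any reproducible peak; it ranked 7121 and 9055 in replicates 1 and 2 and was not listed in replicate 3.

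In the Enhancer of split complex, where the bound protein itself is encoded, 6 weaker sites stood beside 15 reproducible peaks in a window of 53.4 kb (chr3R:25992621-26046008). The gene of the tagged protein, E(spl)mgamma-HLH, had no reproducible peak in its body or 1000 bp upstream, and 2 weaker sites there. One was at its promoter, at −214 bp (chr3R:25999445-25999828), with pooled rank 5725 and signal 93.7, and ranked 12068, 5436 and 15055 in the 3 replicates. The other, at −775 bp (chr3R:25998884-25999267, rank 8189), ranked 4040 in replicate 2 and was listed in neither other replicate.

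Another site lay 3053 bp from the same start on the downstream side (chr3R:26002712-26003095, rank 5148), with rank 2223 in replicate 2 alone. The site at −1012 bp from E(spl)malpha-BFM, a Bearded family gene, ranked 4009 in replicate 2 alone. Replicate 2 thus carried 3 of the 6 sites by itself, and its part in them was not tested beyond these ranks. E(spl)m2-BFM, of the same family, had a site at 294 bp downstream of its start, in all 3 lists at ranks 5512, 10321 and 10777. E(spl)m5-HLH, another of the bHLH repressors, had one at −882 bp, ranked 11018 and 7097 in replicates 1 and 2 and not listed in replicate 3. The 6 windows were between 48.5% and 65.3% G or C.

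Over the genome, 2754 of 13945 protein-coding genes (19.7%) had a weaker site in the body or within 1000 bp upstream, and 1780 (12.8%) had one and no reproducible peak. A reproducible peak was in 3680 genes (26.4%), and both were in 974 (6.98%). These shares are the background for every list below. Long genes collect more sites: the median length of gene body and upstream stretch was 18.7 kb for genes with both, 4.49 kb for genes with weaker sites alone and 3.17 kb for all genes. Of the sites, 1895 (44.3%) were in a gene that also had a reproducible peak, 1504 (35.1%) in genes without one alone, and 883 (20.6%) in no gene's stretch. Of the promoter sites, 1068 of 1508 (70.8%) had a nearest gene without a reproducible peak. The rule left out band peaks that touched a reproducible peak, and such peaks can lie at promoters of genes that have one. This share is therefore not like for like with the 26.4% of all genes that had such a peak.

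The genes with the most weaker sites were long. The gene kirre, which encodes an adhesion protein of muscle founder cells, had 16 in 395 kb beside 20 reproducible peaks. CG43658 had 11, hth, which encodes a Hox cofactor, had 10, and bun, a leucine zipper gene, had 10. Svil, Pdp1, Ten-a, SNF4Agamma, ush and SKIP had 9 each. Per length, Pdp1 had 0.158 sites per kb, kirre 0.0405 and Ten-a 0.0308. Each of the 10 also had between 4 and 20 reproducible peaks.

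Genes that process the Notch receptor and its ligands had sites in both tiers. Of 15 such genes, 8 had a weaker site, 5 of them without a reproducible peak, and 7 had a reproducible peak; the list's median stretch was 6.26 kb. The 5 were kuz, which encodes the metalloprotease that cleaves Notch, lqf, the epsin of ligand endocytosis, mib1, a ubiquitin ligase for ligands, and the Notch regulators dx and Su(dx). Among its 4 weaker sites, kuz had an intronic one with pooled rank 4871 and ranks 4405, 4834 and 5286 in the replicates. It lay 63691 bp from the start of kuz and at −16644 bp from that of CG9254. The mib1 promoter site, at −99 bp, ranked 8668, 8004 and 10111. The site credited to dx lay at −28 bp from its neighbour RpL7A. Su(H) had a promoter site at −42 bp and no reproducible peak, ranked 6442 and 5178 in replicates 2 and 3 and not listed in replicate 1.

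Other Hairy-type and Bearded genes gave single sites. The gene hairy (hry) had a promoter site at −47 bp with pooled rank 8363, which ranked 3397 in replicate 2, 20919 in replicate 3 and was not listed in replicate 1. Brd had one at −625 bp, with ranks 6527, 5597 and 5096. Of 10 proneural bHLH genes and partners, 1 had a weaker site and 2 a reproducible peak. Of 8 corepressor genes, Groucho among them, 5 had a weaker site, and each of these had a reproducible peak too. In the EGF receptor pathway the 9 of 15 genes with a weaker site all had reproducible peaks as well. Median stretches were 17.2 kb for the corepressor genes and 10.4 kb for this pathway, against 3.17 kb for all genes.

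Genes of the embryo's patterning systems had weaker sites in unequal numbers. Of 10 Hox genes and cofactors, 7 had a weaker site and 4 had no reproducible peak beside it, namely Ubx, lab, pb and the cofactor gene exd, whose site lay at −116 bp from the neighbour eIF5. Their median stretch was 31.6 kb, against 3.17 kb for all genes. Ubx had 3 weaker sites, the best in an intron at ranks 8117, 3426 and 5060. Of 16 segmentation genes, with a median stretch of 3.68 kb, 1 had a weaker site and 2 a reproducible peak. Among 20 neuroblast and temporal factors, with a median stretch of 6.81 kb, 6 had a weaker site. Of these, hb, pdm2 and vnd had no reproducible peak, and the pdm2 site was listed in replicate 2 alone, at rank 4445. The mesoderm regulator twi had 3 weaker sites and no reproducible peak, the best at ranks 5704, 4581 and 5440. That site lay in an intron, 17967 bp from the start of twi and at −4457 bp from the neighbour CG9896. The GATA factor genes grn and GATAe had weaker sites alone, 2 and 1.

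Signalling pathway genes had weaker sites with and without reproducible peaks. Of 15 Wg pathway genes, 11 had a weaker site, and dsh, Axn, arm, wls and lgs had no reproducible peak. Their list had a median stretch of 13.4 kb, against 3.17 kb for all genes. The dsh promoter site, at −73 bp, ranked 10039, 5234 and 6039. The arm gene, which encodes beta-catenin, had 2 sites, the better one in an intron at ranks 10940, 6582 and 11622. The Axn site lay at −31 bp from the neighbour RpS28a, and the wls site at −58 bp from Adck5. In the Hh pathway 4 of 9 genes had a weaker site, and hh, the kinase gene fu and the coreceptor gene ihog had no reproducible peak. In the Dpp pathway 8 of 14 had one, with the receptor genes put and sax outside the reproducible set. Median stretches of the Hh and Dpp lists were 5.94 and 6.50 kb, also above that of all genes. The JAK/STAT receptor gene dome had a promoter site at −13 bp, ranked 7798, 11562 and 4569.

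Of 16 axon guidance genes, 13 had a weaker site, against 19.7% of all genes, and these genes were long, with a median stretch of 38.7 kb. The Slit receptor genes robo1 and robo2, Sema2a, Dscam1 and Ptp69D had no reproducible peak. The Sema2a site was intronic and ranked 4393, 5035 and 5797, while the robo1 promoter site ranked 18293, 5114 and 9161. Of 14 sensory organ and neuronal genes, with a median stretch of 21.2 kb, 10 had a weaker site, with Rbp9, nerfin-1 and lz in that tier alone. The nerfin-1 site, at −524 bp, ranked 4516, 4049 and 4659.

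Of 15 cell cycle regulators, with a median stretch of 4.98 kb, 10 had a weaker site and 6 had no reproducible peak: CycA, CycD, Cdk2, E2f2, stg, the Cdc25 phosphatase gene, and fzr, an activator of the anaphase-promoting complex. All 6 best sites were at promoters. The CycA site, at −47 bp, ranked 21467, 11346 and 9265, and the Cdk2 site, at −69 bp, ranked 12638, 8840 and 17607. The E2f2 site ranked 6198, 6061 and 5846 and lay at −3 bp from the neighbour Mpp6, and the stg site lay at −146 bp from CG45544. Reproducible peaks were in 6 of the 15 genes, CycE and E2f1 among them.

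Ribosomal protein genes, which are short, had sites in both tiers. Of 93 cytoplasmic ribosomal protein genes, 54 had a reproducible peak, 17 (18.3%) a weaker site alone and 22 neither, against 26.4% and 12.8% of all genes for the first and second. All 17 best sites were at promoters, for example RpL36 at −13 bp (ranks 4155, 5057 and 5364), RpL3 at −30 bp (4519, 2062 and 8531), RpLP2 at −246 bp (3750, 10390 and 4268) and sta, which encodes the ribosomal protein SA, at −3 bp (5083, 5883 and 12763). Of 73 mitochondrial ribosomal protein genes, 29 had a reproducible peak and 16 (21.9%) a weaker site alone, again all at promoters. They included mRpL50 at −53 bp (ranks 3890, 5723 and 5669) and mRpL9 at −110 bp (5308, 5262 and 4248). Of these 16 sites, 8 were nearest to the start of another gene: those of mRpS25, mRpL3, mRpS30, mRpS16, mRpS17, mRpS6, mRpL33 and mRpL27 lay nearest to nmdyn-D6, Graf, Paf-AHalpha, cg, Nop60B, Cip4, norpA and CG15435. Among the 17 cytoplasmic ones this was so for RpS14a, whose site was nearest to Dhdds.

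Chemosensory genes had few sites. Of 119 odorant and gustatory receptor genes, 3 (2.52%) had a weaker site, namely Or10a and Gr10a, which share 1 site, and Gr64a, and 3 had a reproducible peak. Of 60 ionotropic receptor genes 2 had a weaker site, Ir67c with no other peak, and of 51 odorant binding protein genes 1 did, Obp99b, which also had a reproducible peak. Their median stretches were 2.44, 2.91 and 1.79 kb.

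Chromatin and hormone genes completed the lists. Of 15 Polycomb group genes, with a median stretch of 8.14 kb, 4 had a weaker site, with Su(z)2 and Asx outside the reproducible set. Of 14 insulator and promoter architectural genes, with a median stretch of 4.11 kb, 5 had one, with su(Hw) and z outside it. The su(Hw) site lay at −95 bp from the neighbour Polr2I, and the z site 18 bp downstream of the start of boi. All 12 ecdysone response genes had a site, 11 of them a reproducible peak, and Hr39 had a weaker site alone, 8 bp downstream of its start. Ecdysone response genes were long, with a median stretch of 56.7 kb against 3.17 kb for all genes. Of 11 dorsal-ventral and amnion factors, with a median stretch of 6.13 kb, 5 had a weaker site, Doc1 and vnd with no reproducible peak. Of 12 mesoderm and muscle regulators 3 had one, and of 6 glial genes 1 did.

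**Figure D5:**
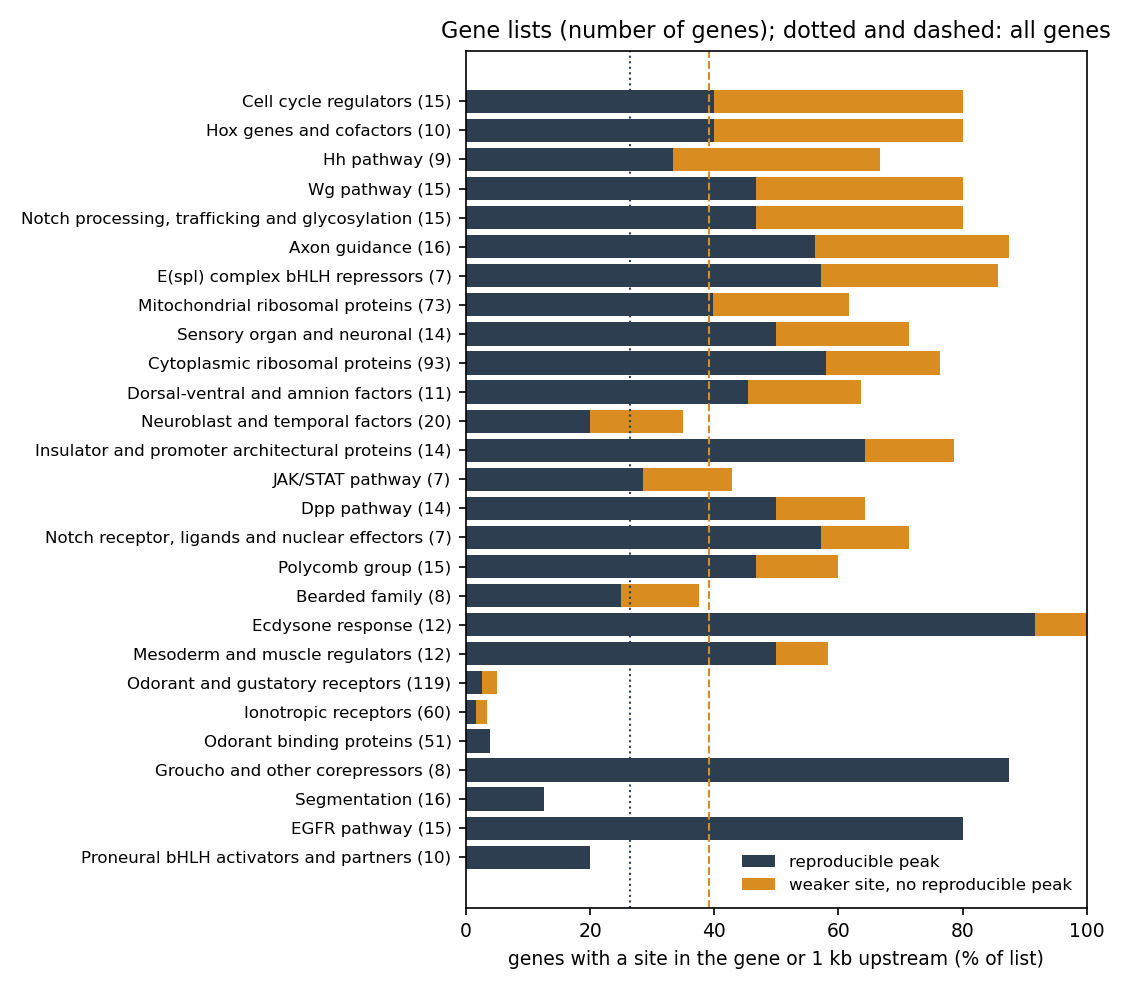
Genes of each list with a reproducible peak (dark) or with a weaker site and no reproducible peak (orange), in percent of the list, for lists of 7 or more genes (number in brackets); the dotted line is the share of all protein-coding genes with a reproducible peak (26.4%), and the dashed line adds the 12.8% with a weaker site alone. Lists differ in gene length, so bars are not comparable between them by height alone.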

How the data were processed

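Peak lists from 3 biological replicates of 1 group were analysed in dm6. Per the deposited text records, 1 list was called on each replicate and 1 on the pooled alignments against a control, and the reproducible set was derived from them. The sources used here do not name the aligner, the peak caller or the cutoff. The deposited signal, which differs in scale from list to list, served only to rank peaks within a list. The deposited q-values are on the −log10 scale, and the other deposited column used is the summit offset. The files give no counts, so depth is unknown. The replicate 2 list holds 30000 peaks, which may be a limit set in calling.

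Summits were classified with Ensembl release 115 on BDGP6.54, over 6 arms. Motifs were sought on both strands, 50 bp to either side of the summit. Shares were compared by Fisher's exact test and flanks by the exact McNemar test, both two-sided with Benjamini-Hochberg adjustment and a threshold of 0.05. Python 3.11.15 with scipy 1.17.1 was used, and the scripts were tested on simulated data. Members and gene lists were chosen with earlier results of these data known. Of 290 list symbols, 5 were not matched and 3 were matched through a synonym. Named were the 10 strongest weaker sites, the 10 genes with the most sites, list members with weaker sites alone (all up to 6, otherwise the 4 of best rank), sites of the Enhancer of split complex and the 5 most extreme hexamers each way. Other names serve as examples and were chosen after their values were seen. Alternatives varied the band, the set compared, the promoter and window width, the q-value, the gene assignment and the replicates.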

Additional observations from a re-analysis of the deposited data

How the results depend on the processing

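The promoter, intron and intergenic differences kept direction and call under every alternative run; promoters ranged from −21.8 to −14.3 points with 1 replicate left out. The coding difference was 0.0612 points in the upper ranks of the band (2126 sites). The 3' UTR difference no longer passed in its lower ranks (2156 sites, 0.353) or against the reproducible peaks below their median signal (0.411), and ranged from 0.199 to 0.720 points with 1 replicate left out. The 5' UTR difference passed with promoters of 200 bp (0.495) and without replicate 1 or 2, over a range of 0.301 to 0.604. Motif calls were 0 higher and 0 lower for the upper ranks and against the lower reproducible peaks, 1 higher with q below 0.05, and 2 to 4 higher and 0 to 1 lower with 1 replicate left out. Motifs lower than flanks numbered 5 with windows of 100 bp to either side, 4 with flanks on the left and 2 on the right, against 1. Hexamers were 0 higher and 2 lower against the lower reproducible peaks, a smaller set, and 5 and 3 outside promoters. Genes with a weaker site were 1686 in the upper and 1549 in the lower ranks, and those without a reproducible peak 1032 and 908, where fewer sites were counted. The cause of the other changes was not tested. No result reversed. The first pooled ranks are the reproducible set itself, so that alternative changed nothing. No paired analysis was possible because all 3 samples form 1 group, so that replicate numbers pair no samples across groups; tiers were compared within each replicate's own list.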
